A study of Mus musculus with 8 samples.

Results

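RNA levels were compared between the livers of 2 mice aged 2.5 months and 5 mice aged 3 months, which are 7 of the 8 livers of the series. The study compared *Rragc*S74N/+ mice, which carry 1 knock-in allele of *Rragc* in every cell of the body, with *Rragc*+/+ mice. At 2.5 months there was 1 *Rragc*+/+ liver (replicate 1) and 1 *Rragc*S74N/+ liver (replicate 2), and at 3 months there were 3 *Rragc*+/+ livers (replicates 1, 3 and 4) and 2 *Rragc*S74N/+ livers (replicates 2 and 5). The 8th liver, from an *Rragc*S74N/+ mouse aged 2 months, was left out of every test of the age groups unless stated, and its values are given beside them. Livers were chosen by their labelled age alone. The labels call all 8 mice young. Replicate numbers follow sample order within an age, each library is taken as 1 mouse, and the p-values measure the spread between these libraries. Neither sex nor time of collection is labelled. The Y-linked genes *Ddx3y*, *Uty*, *Kdm5d* and *Eif2s3y* were read in all 8 livers, at 30.8 or more normalized counts each.

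*Rragc* encodes RagC, a small GTPase that with RagA or RagB brings mTORC1, a kinase complex that promotes growth, to the lysosome when nutrients are present. The age step examined here is a short one in young mice. Male-biased genes of the mouse liver are driven by pulses of growth hormone. Liver RNA also swings with the time of day. Clock and Arntl (Bmal1) together switch on genes with E-boxes, among them *Per*, *Cry*, *Nr1d1* and *Dbp*. The proteins encoded by *Nr1d1* and *Nr1d2* (Rev-erb alpha and beta) repress *Arntl* through ROR elements, and Dbp, Tef and Hlf activate genes through D-boxes. The hour of collection cannot be told apart from age in these livers.

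The promoter stretches below belong to 4 of the 5 called clock genes (*Dbp*, *Nr1d1*, *Nr1d2* and *Arntl*). Another 3 (*Per3*, *Tef* and *Cry1*) were not called and are shown as examples of windows that held a motif. Windows of other uncalled clock genes, among them *Tspan4*, *Lonrf3* and *Nfil3*, also held motifs. The stretches are from RefSeq on GRCm38.p6, 5′ to 3′ on the strand of the gene. Capitals mark a motif, which is the D-box TTANGTAA in *Per3*, the E-box CACGTG in *Tef* and *Cry1* and the ROR element TAGGTCA in *Arntl*. The stretches of *Dbp*, *Nr1d1* and *Nr1d2* lie upstream of the annotated gene and held none of these motifs on either strand.
Dbp, chr7:45704997-45705087, forward strand: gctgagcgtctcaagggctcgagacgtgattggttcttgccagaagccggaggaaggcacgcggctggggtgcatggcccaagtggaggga
Nr1d1, chr11:98775378-98775477, reverse strand: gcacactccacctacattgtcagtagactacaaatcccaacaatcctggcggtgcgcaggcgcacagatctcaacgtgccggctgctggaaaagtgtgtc
Nr1d2, chr14:18239128-18239227, reverse strand: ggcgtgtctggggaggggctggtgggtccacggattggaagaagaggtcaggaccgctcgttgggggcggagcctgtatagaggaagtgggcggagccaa
Per3, chr4:151044806-151044885, reverse strand: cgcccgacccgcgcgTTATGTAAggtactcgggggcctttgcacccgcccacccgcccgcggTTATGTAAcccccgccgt
Tef, chr15:81802534-81802563, forward strand: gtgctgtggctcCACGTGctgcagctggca
Cry1, chr10:85185097-85185126, reverse strand: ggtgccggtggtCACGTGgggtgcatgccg
Arntl, chr7:113207530-113207559, forward strand: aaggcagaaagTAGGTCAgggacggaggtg

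Libraries held 4313076 to 6509465 recovered reads in the 7 livers and 6632108 in the 2-month liver. The 28 pairs of libraries all differed by more than sampling noise, with a chi-square per degree of freedom of 14.6 or more. Values below are normalized counts unless stated. Those at 2.5 months are given with the *Rragc*+/+ liver first, and those at 3 months in the order *Rragc*+/+ replicates 1, 3 and 4, then *Rragc*S74N/+ replicates 2 and 5. Differences are log2 fold changes of 2.5 minus 3 months on the log2(normalized count + 1) scale, adjusted for genotype, with the limma p adjusted over all 11104 genes with a mean of at least 10. In whole liver, fewer cells of a type and less RNA per cell cannot be told apart.

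At 2.5 months, 411 genes differed from 3 months (limma adjusted p under 0.05), which is 3.70% of those tested. Only 43 of them, or 0.387% of the tested genes, were higher at 2.5 months, and 368 (3.31%) were lower, so that 89.5% of all calls were lower at 2.5 months. Lower and higher below refer to 2.5 months against 3 months. The higher genes included the clock genes *Dbp*, *Nr1d1*, *Nr1d2* and *Bhlhe40*, while the lower genes included *Arntl* and genes of mitochondria, ribosomes and hepatocyte metabolism. Changes among the lower genes were larger, with a median log2 fold change of -1.54, against 0.96 among the higher genes and 0.02 over all tested genes. Before adjustment, 873 higher and 1310 lower genes (2183 in all) had a p under 0.05. Both 2.5-month livers lay above all 3-month livers for 1270 genes (11.4%) and below all of them for 1423 (12.8%), and for 43 of the called higher and 360 of the called lower genes the groups did not overlap. Counts in gene lists below stand beside the shares of all tested genes, at 0.387% called higher, 3.31% called lower, 11.4% above and 12.8% below.

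The number of calls rested on both 2.5-month livers and on how the spread was estimated. Without the *Rragc*+/+ liver of 2.5 months 5 genes were called, and without the *Rragc*S74N/+ liver 14 were, all lower. In these fits the lone 2.5-month liver is assumed to vary like the others. A limma fit without the mean-variance trend called 8 genes, all lower. On the recovered reads, edgeR called 315 genes (42 higher and 273 lower) and DESeq2 653 (129 higher and 524 lower). When 1 of the 3-month livers was left out, the count ran from 216 without replicate 2 to 579 without replicate 1.

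**Figure D1:**
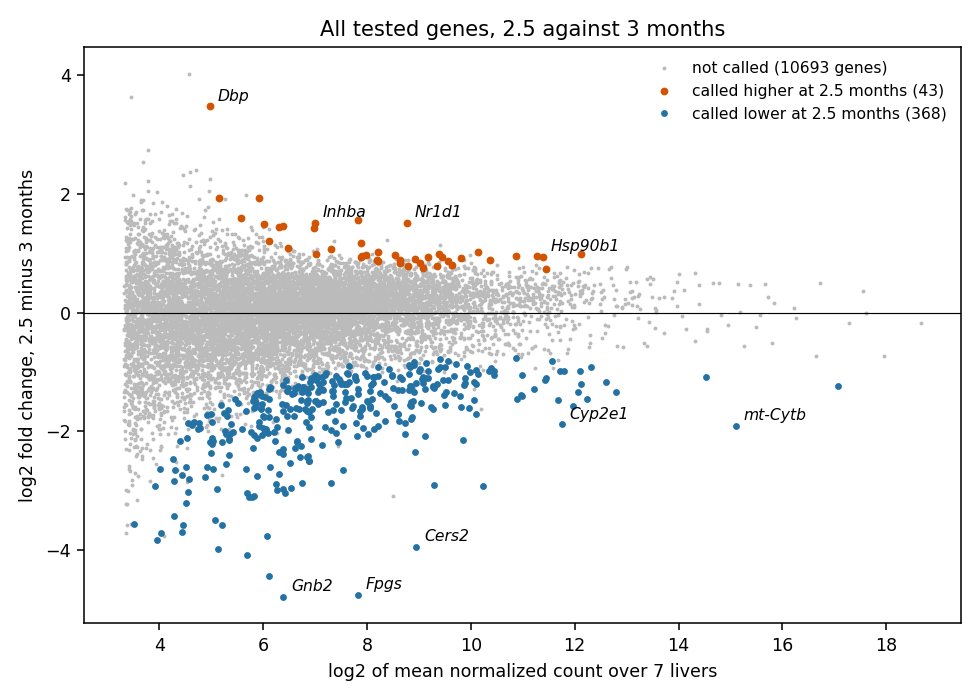
Log2 fold change of 2.5 minus 3 months (vertical axis) against the log2 of the mean normalized count over the 7 livers (horizontal axis) for all 11104 tested genes, 1 point a gene. The 43 genes called higher (orange) lie mostly near 1, while the 368 called lower (blue) reach below -4, with *Fpgs*, *Gnb2* and *Cers2* lowest among the genes labelled.

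Among the higher calls were 4 clock genes, of which *Dbp* and *Nr1d1* lay further from the threshold than *Nr1d2* and *Bhlhe40*. *Dbp* was at 57.9 and 126 at 2.5 months and at 11.2, 3.74, 11.3, 6.43 and 4.44 at 3 months. *Dbp*, which encodes a D-box activator and lies on chromosome 7 of GRCm38 from 45705088 to 45710203, was higher in both 2.5-month livers than in any other liver, by 11.1-fold (log2 fold change 3.47, standard error 0.64, limma adjusted p = 0.00558). Its counts were low, with 4 to 113 reads behind each value, so the fold is imprecise. *Nr1d1* was at 734 and 846 at 2.5 months and at 389.7, 279, 280.1, 154 and 363 at 3 months, so the groups did not overlap and the difference was 2.86-fold (log2 fold change 1.51, standard error 0.29, limma adjusted p = 0.0083). *Nr1d1* encodes the repressor Rev-erb alpha and lies on chromosome 11 from 98767932 to 98775333. Its paralog on chromosome 14 moved the same way, since *Nr1d2* was at 206 and 308 at 2.5 months and at 112, 112, 72.1, 147 and 148 at 3 months (log2 fold change 1.07, standard error 0.27, limma adjusted p = 0.034). *Bhlhe40* was at 156 and 86.9 at 2.5 months and at 38.2, 27.1, 48.1, 56.9 and 39.99 at 3 months. *Bhlhe40* (Dec1) is a repressor of E-box genes, and it was 2.80-fold higher with no overlap (log2 fold change 1.49, standard error 0.37, limma adjusted p = 0.035).

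*Arntl*, whose transcription Nr1d1 and Nr1d2 repress, differed in the opposite direction. *Arntl* was at 21.5 and 20.1 at 2.5 months and at 56.9, 82.3, 56.6, 120.3 and 108 at 3 months. Both 2.5-month livers were below all others and close to each other, and the level was 3.91-fold higher at 3 months (log2 fold change -1.97, standard error 0.35, limma adjusted p = 0.00503). The stretch of *Arntl* printed above lies just after the second of its RefSeq starts and holds the ROR element, 31 bases downstream of that start. In the 2-month liver *Dbp* was at 4.89, *Nr1d1* at 187, *Nr1d2* at 125, *Bhlhe40* at 26.1 and *Arntl* at 146. That liver was thus below the 2.5-month livers for the 4 higher genes and above all 7 for *Arntl*, so the 3 ages do not form a series for these genes.

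**Figure D2:**
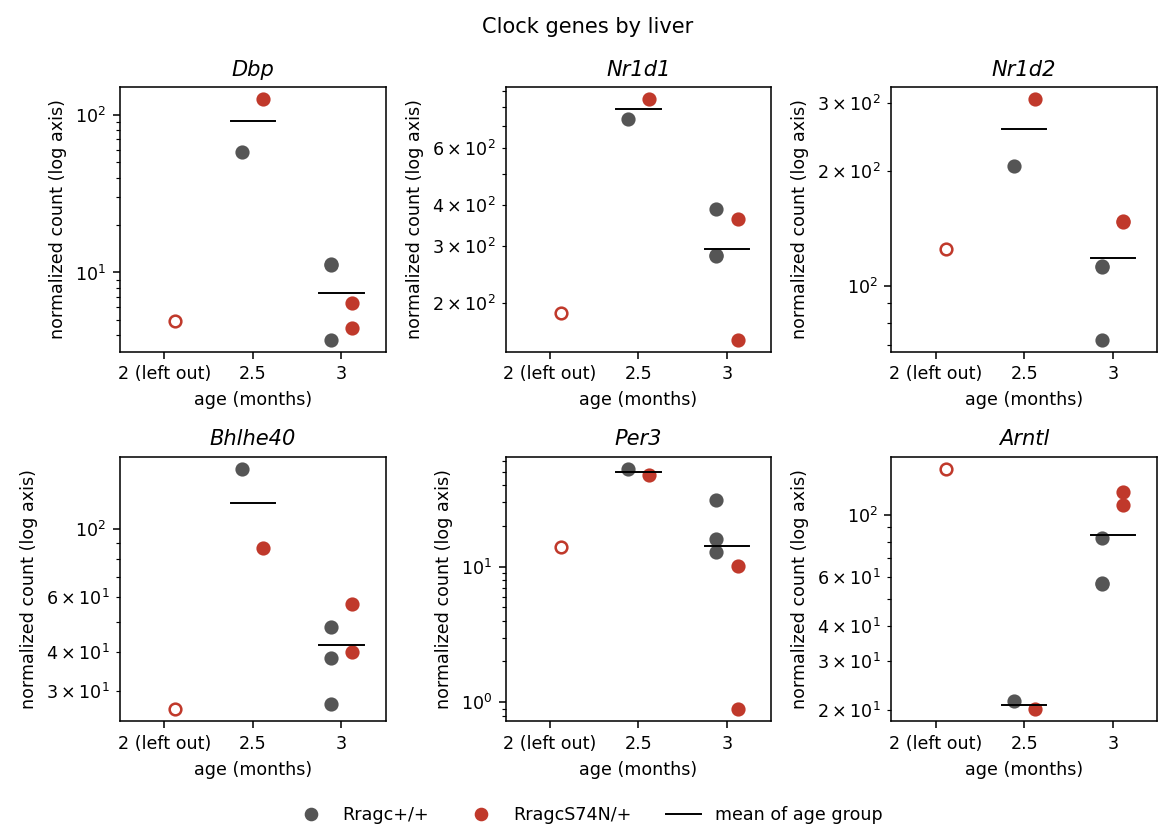
Normalized count (log axis) of 6 clock genes in each liver by age in months, with *Rragc*+/+ livers in grey, *Rragc*S74N/+ livers in red, the left-out 2-month liver as an open circle and lines at the mean of each tested age group. The 2 livers of 2.5 months lie above all others for *Dbp*, *Nr1d1*, *Nr1d2*, *Bhlhe40* and *Per3* and below all others for *Arntl*.

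Of 16 listed genes that peak in the light phase or around dusk, 13 were tested. Of these, 4 were higher (against 0.387% of all tested genes) and none was lower (3.31%), with a median log2 fold change of 0.98. The 9 not called went both ways. *Per3*, a period gene with 2 D-boxes in its window, was at 52.3 and 46.8 at 2.5 months and 30.8, 15.9, 12.7, 10.1 and 0.889 at 3 months (log2 fold change 2.36, standard error 0.71, limma adjusted p = 0.0754), with the groups apart. The D-box activators *Tef* and *Hlf* had log2 fold changes of 0.98 and 0.58 (adjusted p = 0.0934 and 0.212), and *Usp2*, a clock-controlled deubiquitinase, had 1.06 (0.196). For these 3 genes the *Rragc*S74N/+ liver of 2.5 months was the highest of the 7, while its *Rragc*+/+ partner lay within the range of the 3-month livers for all 3. *Tspan4* was at 0.83 (0.0934) and *Cry2*, a repressor of the clock, at 0.34 (0.588).

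Other dusk genes were flat or lower, without a call. *Per2*, a period gene that peaks later than *Dbp* and *Nr1d1*, was at 19.6 and 10.03 at 2.5 months and 8.39, 6.55, 29.7, 41.3 and 7.11 at 3 months, with wide overlap and a log2 fold change of 0.00. For *Lonrf3* the log2 fold change was -1.53 (limma adjusted p = 0.0758), with the groups apart. Of 8 genes that peak around dawn 7 were tested, *Arntl* alone was called, and the median log2 fold change was -0.04. *Nfil3*, a repressor at D-boxes, was at 124 and 119 at 2.5 months and 190.2, 272, 122, 288 and 174 at 3 months (log2 fold change -0.73, standard error 0.31, limma adjusted p = 0.202), and the groups overlapped. The other dawn genes had small differences, at 0.29 for *Clock*, -0.04 for *Cry1*, 0.14 for *Rora*, 0.10 for *Avpr1a* and -0.26 for *Elovl3*, with adjusted p from 0.488 to 0.961. None of the 5 clock calls was kept without either 2.5-month liver or without the trend, while the folds kept their sign. Without the *Rragc*+/+ and without the *Rragc*S74N/+ liver of 2.5 months the log2 fold change was 4.32 and 2.72 for *Dbp*, 1.83 and 1.23 for *Nr1d1*, 1.06 and 1.08 for *Nr1d2*, 0.85 and 2.05 for *Bhlhe40* and -2.45 and -1.54 for *Arntl*. Leaving out the trend alters the variance estimate and not the folds. edgeR also called 5 clock genes, and DESeq2 called 8.

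Promoter windows of 250 bases before to 50 after the RefSeq start were searched on both strands. Windows were found for 10 of the 13 dusk and 6 of the 7 dawn genes, and *Bhlhe40* and *Per2* were among the genes without one. An E-box CACGTG was held by 3 of the 10 dusk genes (*Tef*, *Tspan4* and *Lonrf3*) and 1 of the 6 dawn genes (*Cry1*), against 11.9% of the 8413 tested genes with a window. *Per3* held the D-box TTANGTAA at 205 and 158 bases before its start, where 2.06% of tested genes held one. The ROR element TAGGTCA was in 2 of the 6 dawn genes, *Arntl* and *Nfil3*, and in no dusk gene, against 2.58% of tested genes. *Hlf* alone held the cyclic AMP element TGACGTCA, against 3.57%, and the shorter site TGACG, which overlaps it, was in 3 dusk and 3 dawn genes, against 35.9%. No clock gene held the heat shock element GAANNTTC, against 7.14%. The windows of all called higher and called lower genes held the E-box in 8.33% of 36 and 11.6% of 301, the D-box in 5.56% and 2.33%, the ROR element in 0% and 3.32%, the shorter site in 27.8% and 35.9% and the heat shock element in 8.33% and 6.64%. These are letters in a window, and binding was not measured.

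Outside the clock, the higher genes had varied roles. *Inhba* was at 301 and 179 at 2.5 months and at 91.4, 92.6, 79.2, 77.1 and 75.5 at 3 months. *Inhba*, which encodes the subunit of activin A, was thus 2.85-fold higher with no overlap (log2 fold change 1.51, standard error 0.27, limma adjusted p = 0.00515), and was at 27.7 in the 2-month liver, below all 7. *Bach1* was at 389.6 and 386 at 2.5 months and at 208, 152, 164, 149.7 and 196 at 3 months. *Bach1* encodes a heme-regulated repressor, and its log2 difference was 1.17 in *Rragc*+/+ and 1.17 in *Rragc*S74N/+ livers (log2 fold change 1.17, standard error 0.24, limma adjusted p = 0.0132). *Anks4b*, a scaffold of microvilli, was at 425 and 381 at 2.5 months and 207, 86.04, 272, 100.1 and 115 at 3 months (log2 fold change 1.56, standard error 0.35, limma adjusted p = 0.0186), with 1 of the 3-month livers, *Rragc*+/+ replicate 4, nearest to the 2.5-month livers.

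Further large differences among the higher genes were those of *Napb* (log2 fold change 1.94), a vesicle fusion factor, *Otud3* (1.59), a deubiquitinase, *Ascc2* (1.46), *Fgd6* (1.43), *Slc20a1* (1.21), a phosphate transporter, and *Anapc7* (1.08), a subunit of the anaphase-promoting complex, with adjusted p from 0.0252 to 0.0469. *Hsp90b1*, a chaperone of the endoplasmic reticulum, was at 4373 and 3539 at 2.5 months and 2752, 1965, 2539, 1616 and 1878 at 3 months (log2 fold change 0.94, standard error 0.20, limma adjusted p = 0.016). All 5 livers of 3 months were below both of 2.5 months. *Hsp90b1* was the single higher call of 23 tested genes of the unfolded protein response, and *Hyou1*, another chaperone of the same compartment, was called in the opposite direction (-1.29, adjusted p = 0.0249). *C8a*, a complement component, was 1.67-fold higher (limma adjusted p = 0.0441) and *Slc1a2*, the glutamate transporter of pericentral hepatocytes, 1.75-fold (adjusted p = 0.0485). Neither *C8a* nor *Slc1a2* was called by edgeR (adjusted p = 0.0545 and 0.0545).

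The lower genes were led by transcripts with few reads at 2.5 months. *Fpgs* was at 7.47 and 10.03 at 2.5 months and at 79.2, 246, 434, 619 and 184 at 3 months. *Fpgs*, on chromosome 2 from 32682609 to 32704145, encodes the enzyme that traps folate in cells, and its level was 27.1-fold higher at 3 months (log2 fold change -4.76, standard error 0.51, limma adjusted p = 0.000274). *Cers2* was at 26.2 and 54.6 at 2.5 months and at 215, 499, 901, 1312 and 457 at 3 months. *Cers2*, the ceramide synthase of very long acyl chains in liver, was 15.5-fold higher at 3 months, and both its values at 2.5 months lay far below the lowest 3-month liver (log2 fold change -3.95, standard error 0.43, limma adjusted p = 0.000274). *Gnb2* was at 0.934 and 3.34 at 2.5 months and at 17.7, 55.2, 144, 319 and 45.3 at 3 months. *Gnb2*, a G protein subunit, likewise did not overlap (log2 fold change -4.80, standard error 0.71, limma adjusted p = 0.00257), but only 1 and 3 reads stand behind its 2.5-month values and its 3-month values spanned 17.7 to 319. *Lrp5*, a Wnt co-receptor, was at 1.87 and 5.57 at 2.5 months and 40.1, 55.2, 56.6, 47.7 and 51.5 at 3 months (log2 fold change -3.58, standard error 0.47, limma adjusted p = 0.00134), and its 3-month livers lay close together. *Rnaset2b* (-4.44), *Tinagl1* (-4.09) and *Slc25a22* (-3.77), a mitochondrial glutamate carrier, were also lower at 2.5 months. *Rnaset2b* has a near-identical copy, so the assignment of its reads is uncertain.

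The 3-month livers were themselves spread widely for these genes, as a few genes show. For *Fpgs*, *Cers2* and *Gnb2*, *Rragc*+/+ replicate 1 was the lowest 3-month liver and *Rragc*S74N/+ replicate 2 the highest. On the first principal component of the 7 livers, which held 38.2% of the variance, the 2.5-month livers were at -54.4 and -41.8, *Rragc*+/+ replicates 1, 3 and 4 of 3 months at -12.6, 13.5 and 26.4, and *Rragc*S74N/+ replicates 2 and 5 at 58.4 and 10.5. The 2-month liver, which was not used to choose the genes, lay with the 3-month livers or beyond them. It was at 524 for *Fpgs*, 1329.7 for *Cers2* and 348 for *Gnb2*. Over the 368 lower genes it was above the mean of the 3-month livers for 310 (84.2%, against 46.6% of all tested genes). It was above all of them for 146 (39.7%, against 19.4% of all tested genes) and at or below the higher of the 2.5-month livers for 4. Over the 43 higher genes it was below the mean of the 3-month livers for 33 and above it for 23.3%, against 46.6% of all tested genes. It was below all 3-month livers for 18 (41.9%, against 21.8% of all tested genes) and at or above the lower of the 2.5-month livers for 1. With the 2-month liver fitted as an age of its own 415 genes were called between 2.5 and 3 months, and with age as a number over all 8 livers none was (limma, 342 at an unadjusted p under 0.05).

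**Figure D3:**
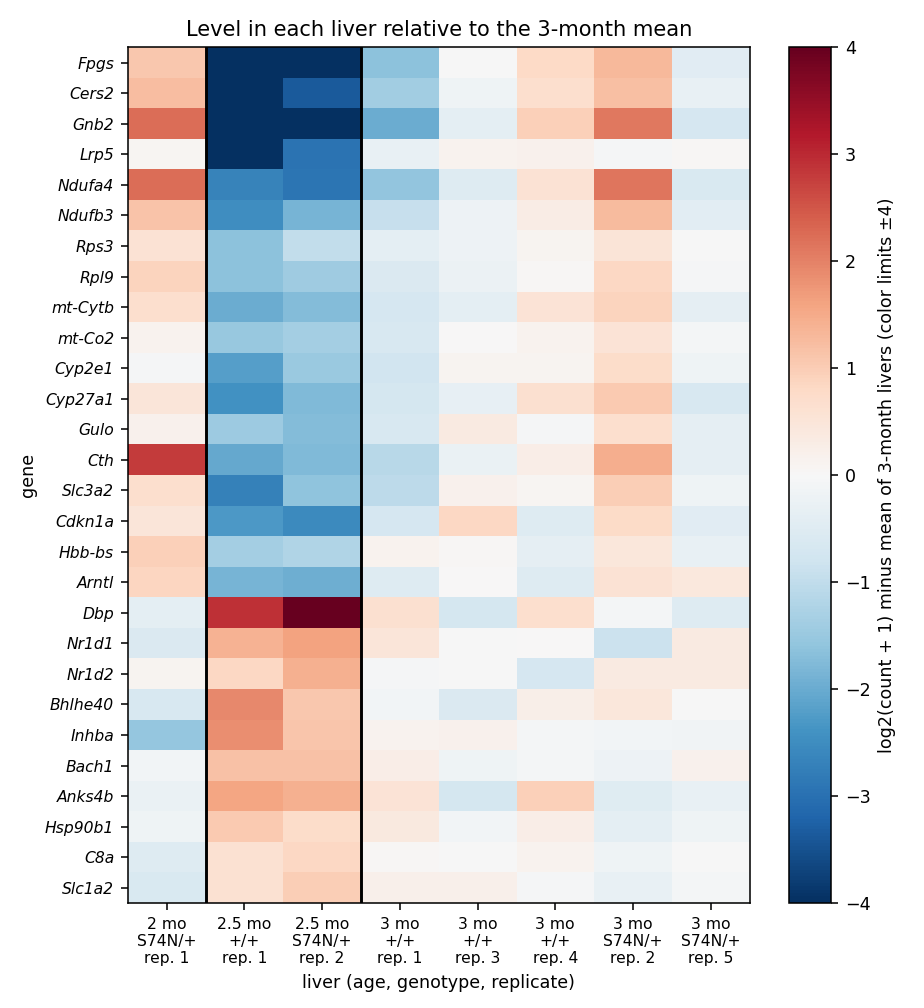
Log2(normalized count + 1) minus the mean of the 3-month livers for 28 called genes (rows) in the 8 livers (columns, with age, genotype and replicate), red for higher and blue for lower, with colors limited at ±4. Both 2.5-month columns are blue for the lower genes and red for the higher ones, whereas the 2-month column resembles *Rragc*S74N/+ replicate 2 of 3 months for the lower genes.

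Some genes of the respiratory chain were lower at 2.5 months. Of 15 mitochondrially encoded genes tested 4 were lower and none higher, against 3.31% and 0.387% of all tested genes. The median log2 fold change of the 15 was -0.51. *mt-Cytb* was at 10211 and 12129 at 2.5 months and at 25454, 31374, 59129.8, 75637 and 31586 at 3 months. *mt-Cytb*, the cytochrome of complex III, was 3.76-fold higher at 3 months and was at 64406 in the 2-month liver (log2 fold change -1.91, standard error 0.33, limma adjusted p = 0.005). *mt-Nd4* was at 60873 and 79662 at 2.5 months and 172668, 130518, 178196, 182480.0 and 154727 at 3 months (log2 fold change -1.24, standard error 0.27, limma adjusted p = 0.0184), and the groups were apart. *mt-Co2* and *mt-Atp8* had log2 fold changes of -1.46 and -1.10 (adjusted p = 0.00519 and 0.00775). Mitochondrial genes together took 16.1% and 16.3% of reads at 2.5 months and 20.8% to 23.1% at 3 months, and 16.7% in the 2-month liver.

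Nuclear subunits were also lower in part. Of 28 tested subunits of the respiratory chain and ATP synthase 6 were lower and none higher (median -0.21). Over all tested genes 3.31% were lower and 0.387% higher. *Ndufa4* was at 21.5 and 17.8 at 2.5 months and 46.6, 99.1, 211, 622 and 91.5 at 3 months (log2 fold change -2.87, standard error 0.60, limma adjusted p = 0.0137), with the groups apart but a wide range at 3 months. *Ndufb3*, *Ndufa1*, *Cox5a*, *Atp5j* and *Atp5b* had log2 fold changes of -2.25, -1.86, -1.14, -1.10 and -0.97, with adjusted p from 0.00549 to 0.03. In 10 of the 28 both 2.5-month livers were below all 3-month livers, and in 2 both were above. Over all tested genes these shares were 12.8% and 11.4%.

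Among proteins of the cytosolic ribosome the calls were all lower, although the list was centred near 0. Of 38 ribosomal protein genes 8 were lower and none higher, against 3.31% and 0.387% of all tested genes. The median log2 fold change of the 38 was 0.05. Both 2.5-month livers were below all 3-month livers for 12 of the 38 and above all of them for 7. Over all tested genes these shares were 12.8% and 11.4%. *Rps3* was at 310.2 and 490.3 at 2.5 months and 732, 836, 1051, 1374 and 947 at 3 months (log2 fold change -1.35, standard error 0.22, limma adjusted p = 0.00466). *Rpl9*, *Rps2*, *Rpl11* and *Rpl27* had log2 fold changes of -1.58, -1.82, -1.22 and -1.20 (adjusted p from 0.00496 to 0.0162). Many ribosomal protein genes have processed pseudogenes with similar sequence, so their reads may be split between copies. Of 29 genes of ribosome biogenesis none was called, with a median of 0.29 (5 at an unadjusted p under 0.05, 0 by edgeR and 0 by DESeq2).

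Enzymes of hepatocyte metabolism were called mostly in the lower direction, as were 89.5% of calls over all genes. *Cyp2e1*, a pericentral P450 that oxidizes ethanol, was at 902 and 1485 at 2.5 months and 2422, 4439, 4439, 6796 and 3698 at 3 months (log2 fold change -1.89, standard error 0.27, limma adjusted p = 0.00217), and all 5 livers of 3 months were above both of 2.5 months. *Cyp27a1*, the sterol hydroxylase of the acidic bile acid pathway, was at 195 and 306 at 2.5 months and 646, 841, 1632, 2189 and 672 at 3 months (log2 fold change -2.15, standard error 0.37, limma adjusted p = 0.005), and *Amacr*, an enzyme of bile acid side-chain shortening, had -2.36 (adjusted p = 0.0184). These 2 were the calls among 19 bile acid genes (median 0.17). *Gulo*, which makes vitamin C, had a log2 difference of -1.60 (limma adjusted p = 0.00519). The pericentral list of 22 genes had 1 higher and 2 lower calls (median -0.08), and the list of 25 P450 and related genes 2 lower calls, *Cyp2e1* and *Cyp2c50* (-1.17, adjusted p = 0.0409).

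Of 37 genes of amino acid breakdown 5 were lower and none higher (median -0.10), against 3.31% and 0.387% of all tested genes. *Cth*, which makes cysteine from cystathionine, was at 72.9 and 88.04 at 2.5 months and 139.8, 251, 364, 826 and 235 at 3 months (log2 fold change -1.97, standard error 0.41, limma adjusted p = 0.0125), and in the 2-month liver at 2088. *Amt* and *Gldc* of the glycine cleavage system had -2.17 and -1.61, *Got1* -1.11 and *Gls2*, the liver glutaminase, -0.98 (adjusted p from 0.005 to 0.0417). Periportal genes numbered 18 (median -0.23), with 3 lower calls, *Aldh1b1* (-1.68, adjusted p = 0.00514) beside *Gldc* and *Gls2*. Of 13 genes of the amino acid response *Cth* and *Slc3a2*, the heavy chain of amino acid transporters (-2.23, adjusted p = 0.00466), were lower (median -0.35). The lipogenic list of 23 genes had 1 call, *Mid1ip1* (-2.07, adjusted p = 0.0249, median -0.20).

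Genes that respond to glucocorticoids or inflammation were called in the lower direction only, like most calls over all genes. *Cdkn1a*, the inhibitor p21 of the cell cycle, was at 24.3 and 20.1 at 2.5 months and 77.4, 221, 86.3, 212 and 90.7 at 3 months, 5.43-fold higher at 3 months (log2 fold change -2.44, standard error 0.42, limma adjusted p = 0.00489), with both 2.5-month livers below the rest. Of 18 tested glucocorticoid-responsive genes it, *Nfkbia* (-1.24, adjusted p = 0.0198) and *Serpina3n* (-1.09, adjusted p = 0.028) were lower, and the list median was -0.65 (2 called by edgeR and 3 by DESeq2). The acute phase list of 26 had 3 lower calls, *Fga*, *Serpina3n* and *Hamp*, and a median of 0.06, and edgeR called 1 of its genes (adjusted p = 0.0585 for *Serpina3n* and 0.0838 for *Hamp*). *Fga*, a chain of fibrinogen, was at 2281 and 2959.8 at 2.5 months and 4332, 4142, 5047, 7139 and 4957 at 3 months (log2 fold change -0.99, standard error 0.21, limma adjusted p = 0.0132). *Hamp*, which encodes the iron hormone hepcidin, had -1.17 (adjusted p = 0.0404), but its *Rragc*S74N/+ liver of 2.5 months, at 5294, lay within the range of 3 months. None of 18 immediate early genes was called (median -0.48, 8 at an unadjusted p under 0.05, 0 by edgeR and 1 by DESeq2).

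Several lists of liver state had no call. None of 29 genes of fasting was called by limma (7 at an unadjusted p under 0.05, 0 by edgeR and 2 by DESeq2), and the median was -0.17. In 3 of the 29 both 2.5-month livers lay above and in 3 below all 3-month livers, near the 11.4% and 12.8% of all tested genes. *Ppara*, the fasting regulator, was at 0.80 on the log2 scale of differences (limma adjusted p = 0.0801). None of 16 cell cycle genes was called, although the median was 0.62 (3 at an unadjusted p under 0.05, 0 by edgeR and 0 by DESeq2), and *Mki67*, a marker of dividing cells, was at 31.8 and 42.3 at 2.5 months and 15.8, 14.03, 7.07, 6.43 and 15.1 at 3 months (log2 fold change 1.66, standard error 0.59, limma adjusted p = 0.129). DESeq2 did not call *Mki67* or *Cenpf* either (adjusted p = 0.0908 and 0.147). Cholesterol synthesis had no call among 26 genes (median 0.23, 7 at an unadjusted p under 0.05, 0 by edgeR and 1 by DESeq2), with 0.86 for *Idi1* (limma adjusted p = 0.103). Heat shock genes had no call among 16 (median 0.07, 2 at an unadjusted p under 0.05, 0 by edgeR and 0 by DESeq2), nor had cold-inducible genes among 3 (-0.13, 0 at an unadjusted p under 0.05, 0 by edgeR and 0 by DESeq2). Genes of early postnatal growth had none among 8 (0.10, 0 at an unadjusted p under 0.05, 0 by edgeR and 0 by DESeq2). The interferon list of 36 had 1 lower call, *Bst2*, which edgeR did not call (adjusted p = 0.0536, median -0.14).

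Genes of male liver, which rise as growth hormone pulses mature, had 2 calls by limma and none by edgeR. Of 31 male-biased genes tested *C8a* was higher and *Mup12*, a major urinary protein, was lower, and the 2.5-month and 3-month livers overlapped for 28 (median -0.07). *Mup12* was at 1194 and 759 at 2.5 months and 4247, 2625, 3053, 1482 and 916 at 3 months (log2 fold change -1.05, standard error 0.25, limma adjusted p = 0.0288), with edgeR giving an adjusted p of 0.0529. The groups overlapped, and *Mup* genes share reads with their near-identical copies. *Elovl3*, a fatty acid elongase of male liver, was at 4326 and 2544 at 2.5 months and 5978, 5445, 4105, 2566 and 3709 at 3 months, with the groups overlapping. The 2-month liver, a single library, was below all 7 others for 27 of the 31 genes. Over all tested genes it was below all 3-month livers for 21.8%, which is an easier condition than below all 7. In that liver *Elovl3* was at 102, *Cyp2d9* at 1486 (against 10298 or more elsewhere) and *Hsd3b5* at 48.9 (against 402 or more). The female-biased list had no call among 11 tested genes (median -0.02, 3 at an unadjusted p under 0.05, 0 by edgeR and 0 by DESeq2). The growth hormone list of 16 (median -0.44) had 1, *Igfbp2* (-1.20, adjusted p = 0.035 by limma and 0.0536 by edgeR, groups overlapping).

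In the Rag and mTORC1 pathway, 2 of 33 tested genes were called, both lower (median -0.11), beside 3.70% of all tested genes, most of them lower. *Rragc* itself was at 112 and 84.7 at 2.5 months and 77.4, 83.2, 63.7, 71.6 and 69.3 at 3 months (log2 fold change 0.43, standard error 0.29, limma adjusted p = 0.429), so the groups were apart without a call. Counts at the 3′ end do not tell the alleles apart. *Rraga*, which encodes the partner GTPase RagA, was at 13.1 and 13.4 at 2.5 months and 33.6, 55.2, 33.95, 149 and 40.9 at 3 months (log2 fold change -1.97, standard error 0.48, limma adjusted p = 0.0301). *Eif4ebp2*, a translation repressor phosphorylated by mTORC1, was at 386 and 522 at 2.5 months and 681, 858, 823, 1647 and 805 at 3 months (log2 fold change -1.08, standard error 0.25, limma adjusted p = 0.0237). For both, *Rragc*S74N/+ replicate 2 of 3 months was far above the other 3-month livers. Of 33 genes of autophagy and lysosomes *Tpp1* and *Ctsl*, both lysosomal proteases, were lower (-1.38 and -1.18, adjusted p = 0.0276 and 0.0485), with a median of 0.04.

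Hepatocyte markers were abundant in all libraries. None of 15 hepatocyte markers was called, with a median of -0.21 (7 at an unadjusted p under 0.05, 0 by edgeR and 3 by DESeq2), and they too split, with *Apob* at 0.76 and *Asgr1* and *Hnf4a* at -0.80 and -0.78 (adjusted p from 0.0572 to 0.0816). Their summed normalized count was 402795 and 435707 at 2.5 months and 409924 to 521515 at 3 months. Among markers of other cells 1 of 7 tested erythroid genes was lower, *Hbb-bs* (-1.29, adjusted p = 0.00503), and the summed erythroid count was 9195 and 8884 against 8462 to 15054. *C1qc* was the 1 lower call of 16 Kupffer cell markers (-1.25, edgeR adjusted p = 0.0559, median -0.05), and *Sox9* that of 4 cholangiocyte markers (-1.63, median -0.22). Of the 21 endothelial, 19 stellate, 5 monocyte, 2 neutrophil, 6 B and plasma, 3 T and NK, 4 adipose, 1 pancreas and 1 mesothelium markers tested, none was called by limma. At an unadjusted p under 0.05 there were 4 endothelial, 3 stellate, 2 monocyte, 1 B and plasma and 1 adipose markers. The stellate marker *Tagln* was called by edgeR and DESeq2 and the monocyte marker *Lyz2* by DESeq2. The kidney list had 1 lower call of 3, *Cyp2e1*, which hepatocytes express. The part of cell composition in the differences was not tested.

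Each genotype was then taken alone, since its livers are not shared with the other. In *Rragc*+/+ mice (1 liver against 3) 45 genes were called, 0.405% of those tested, 1 higher and 44 lower. In *Rragc*S74N/+ mice (1 against 2) 242 were called, 2.18%, 26 higher and 216 lower. Each of these fits has a single 2.5-month liver with no spread of its own, which is assumed to vary like the 3-month livers, so the counts are descriptions and were not compared. The within-genotype differences had the same sign for 64.7% of all tested genes. Across genes the within-genotype differences had a Pearson r of 0.38 and a Spearman rho of 0.37, as a description over 11104 genes that are not independent and that share library depth and base composition. *Dbp* had a log2 difference of 2.72 in *Rragc*+/+ and 4.32 in *Rragc*S74N/+ and *Arntl* -1.54 and -2.45. No difference between genotypes was detected for either by the interaction test (limma adjusted p = 0.999 for both).

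**Figure D4:**
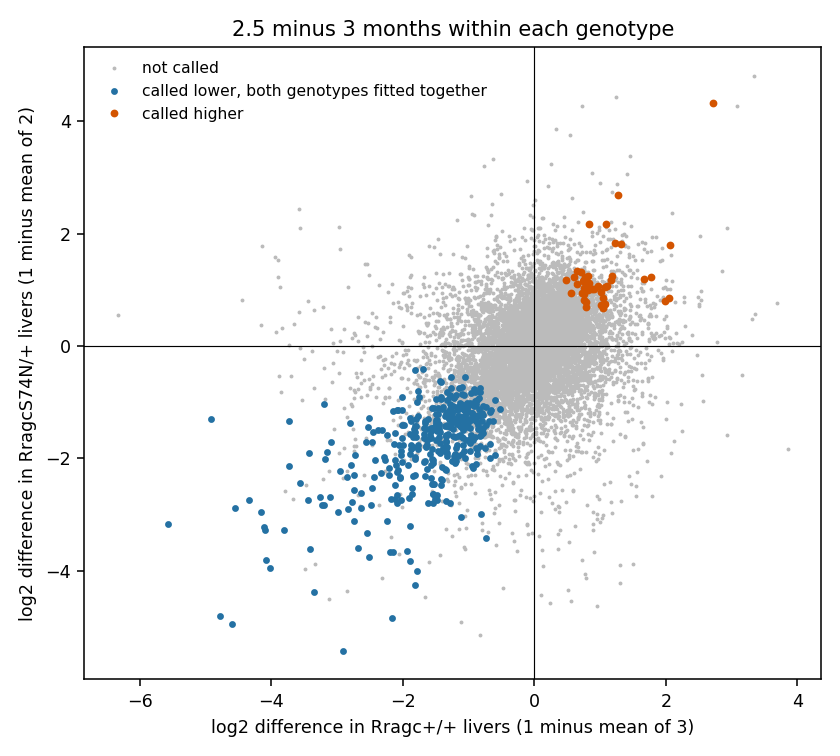
Log2 difference of 2.5 minus 3 months in *Rragc*S74N/+ livers (vertical axis, 1 liver minus the mean of 2) against that in *Rragc*+/+ livers (horizontal axis, 1 minus the mean of 3), 1 point a gene. Genes called lower (blue) lie in the lower left and genes called higher (orange) in the upper right, as both axes enter the fit that called them, and 64.7% of all tested genes have the same sign on both axes.

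The difference between genotypes in the age step was tested as an interaction. No gene passed (limma, 480 at an unadjusted p under 0.05; smallest adjusted p 0.897), nor with edgeR or DESeq2, so a difference between genotypes in the step was not detectable with 1 liver at 2.5 months each. Between genotypes in the same 7 livers 3 genes were called, 0.027% of those tested, all lower in *Rragc*S74N/+, but none with edgeR, without the trend or without either 2.5-month liver. They were *Gpx3*, *Mup17* and *Tsc22d1*, named after their values were seen, with log2 differences of -1.89, -2.04 and -1.16 (limma adjusted p = 0.0253 for each).

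Measures of the libraries also differed between the age groups. The mitochondrial share of reads separated the groups, as given above. Reads from small nucleolar RNA genes made up 0.459% and 0.394% at 2.5 months, 0.204% to 0.367% at 3 months and 0.165% in the 2-month liver. Genes were ranked by the share of A and T in the last 50 bases of their annotated transcript. The median centred level of the richest of 5 groups (78% or more) minus that of the poorest (58% or less) was -0.28 and -0.18 on the log2 scale at 2.5 months. It was -0.24, -0.09 and 0.22 in *Rragc*+/+ and 0.27 and -0.05 in *Rragc*S74N/+ livers of 3 months and 0.37 in the 2-month liver. This measure did not separate the ages, since *Rragc*+/+ replicate 1 of 3 months fell between both 2.5-month livers, and it placed the 2-month liver at the far end. With it as a covariate, chosen after seeing the data, 6 genes were called, all lower, among them *Fpgs*, *Cers2* and *Lrp5* (1069 genes at an unadjusted p under 0.05). With the mitochondrial share as a covariate, also chosen after seeing the data, none was (limma, 676 at an unadjusted p under 0.05), and the sign turned for *Nr1d2*, *Gnb2*, *Cers2* and *mt-Cytb* among others. Because this share separated the age groups, that fit cannot tell age from the share, and its lost calls and turned signs decide nothing. *mt-Cytb* is itself counted in the share. The part of these measures in the differences was not tested otherwise. RNA integrity is labelled as a range over samples and not per liver.

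**Figure D5:**
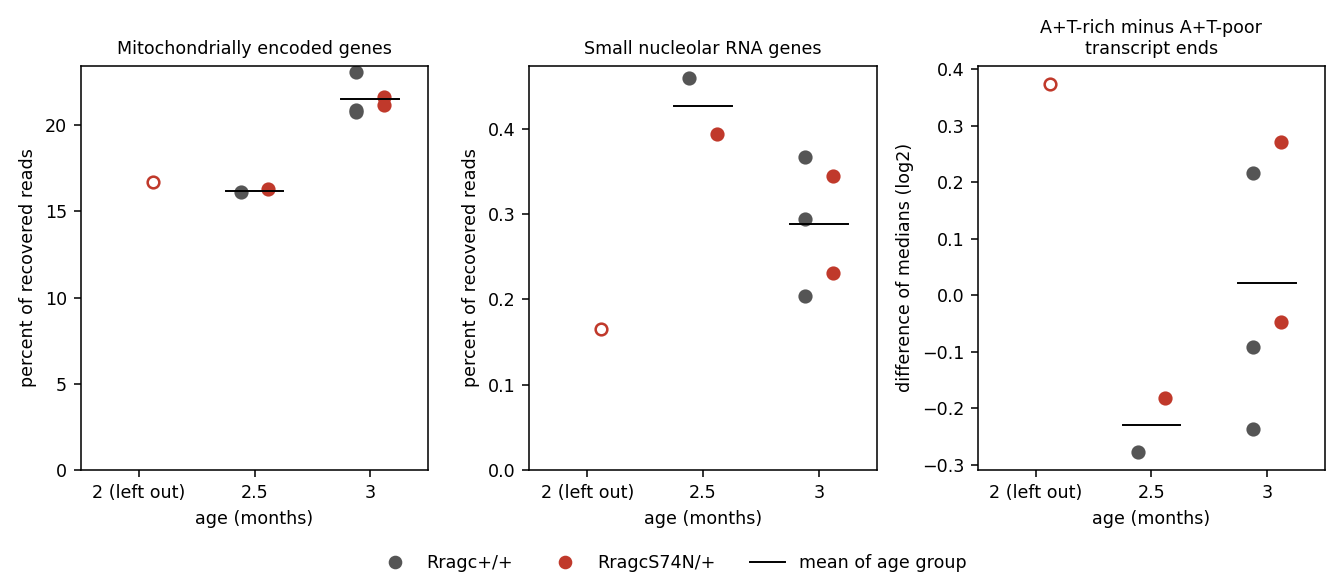
Share of recovered reads in mitochondrially encoded genes and in small nucleolar RNA genes (percent) and the difference of median log2 levels between genes with A+T-rich and A+T-poor transcript ends, in each liver by age in months, with colors as in the plot of clock genes and lines at the mean of each tested age group. Mitochondrial shares of the 2.5-month livers (16.1% and 16.3%) are below all 3-month livers (20.8% or more), while the measure of transcript ends overlaps between the ages.

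Called higher and called lower genes differed from all tested genes in opposite directions in features of their transcripts, which the comparison did not use. Over the nuclear protein-coding genes, the annotated transcript had a median length of 2080 bases for the 355 called lower and 3802 for the 42 called higher, against 2996 for all 10228 tested. The lower genes had a median of 6 exons, the higher 13.5 and all tested 9. Stretches of at least 6 A before the last 100 bases numbered 0.586 per transcript on average in the lower genes, 2.90 in the higher and 1.66 in all. The last 50 bases held a median of 74% A and T in the lower genes, 63% in the higher and 68% in all. In 5 groups by that share, from the poorest to the richest in A and T, 1.59%, 2.11%, 2.59%, 5.65% and 5.63% of genes were called lower, and the median log2 fold change was 0.16 in the poorest and -0.10 in the richest group. Libraries were primed with oligo-dT, and the part of these features in the differences was not tested. Among other classes the median log2 fold change was 0.60 for 35 small nucleolar RNA genes, 0.33 for 225 genes annotated only as to be experimentally tested and 0.34 for 77 processed pseudogenes, with no call in these. It was 0.03 for 136 long intergenic RNA genes with no call, 0.07 for 100 antisense genes with 2 lower calls and -0.07 for 88 processed transcripts with 3 lower calls.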

How the data were processed

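Liver RNA from 8 mice had been made into QuantSeq 3′ (FWD) libraries, which are oligo-dT primed and stranded. The submitters' processing notes name FastQC 0.11.7, TopHat2 2.0.10, Bowtie 1.0.0, SAMtools 0.1.19, HTSeq 0.6.1 and DESeq2, with GRCm38. The deposited values are a signal per gene, namely read counts that the authors divided by a size factor per library. Whole reads were recovered from the steps between low values, and 100% of values came out whole within 0.01, with 4313076 to 6632108 reads per library. No column of other samples was used. In 7 livers, log2(normalized count + 1) was fitted on age and genotype with limma 3.58.1 (trend, Benjamini-Hochberg adjustment, two-sided) for 11104 of 14506 genes with a mean of 10 or more. The alternatives on recovered reads used edgeR 4.0.16 and DESeq2 1.42.0. The fits were also run on counts simulated independently for each gene. Those counts had no shared shifts between libraries, so the runs cannot show how the fits behave under such shifts. Transcript features came from GENCODE M21, where 11085 tested genes were found, and promoters from RefSeq on GRCm38.p6.

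The comparison and the 43 gene lists were chosen with earlier results of these data known, so list counts and medians are descriptions. Genes named were up to 15 called in each direction by size of change, all clock genes, up to 6 called (or, with none called, up to 3) per other list, and *Rragc*. From these the text names a part, and a few are not reported here.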

Additional observations from a re-analysis of the deposited data

Results flagged for a closer look

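Among the 5 livers of 3 months, 8 of the genes named had 1 liver far from the other 4 by Dixon's gap, and so had the recovered reads. Chance flags about 1 in 20 groups of this size. Most of the 8 flags fell on *Rragc*S74N/+ replicate 2, so they are not separate events and were not set against that rate. *Rragc*S74N/+ replicate 2 stood far above the others for *Slc25a22* at 272, *Ndufa4* at 622, *Atp5j* at 1089, *Rraga* at 149, *Eif4ebp2* at 1647 and *Hyou1* at 1084 normalized counts. *Rragc*S74N/+ replicate 5 was above the others for *Fgd6* at 148, and *Rragc*+/+ replicate 1 below the others for *Sox9* at 173. The recovered reads of *Rragc*+/+ replicate 4 were 4313076, fewer than in any other library. Without *Rragc*+/+ replicates 1 and 4 the genes called between 2.5 and 3 months numbered 579 and 291. Without *Rragc*S74N/+ replicates 2 and 5 they numbered 216 and 497.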

How the results depend on the processing

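The 411 genes called between 2.5 and 3 months numbered 8 without limma's trend, 0 with age as a number over 8 livers, 653 with DESeq2 on recovered reads and 761 at an adjusted p under 0.1. With settings chosen after seeing the data they numbered 0 with the mitochondrial share as a covariate, 6 with the base composition of transcript ends, 45 in *Rragc*+/+ livers alone and 242 in *Rragc*S74N/+ livers alone. Leaving out 1 liver gave 5 (without replicate 1 of 2.5 months) to 579 (without replicate 1 of 3 months). The count stayed within 1.5 times for the other pseudocounts, filters, rescalings, array weights, the 2-month liver as its own age, no genotype term and edgeR. The 5 clock genes called became 0 without the trend, with age as a number and with either covariate, and 8 with DESeq2, and the count changed when 1 liver was left out. Within a genotype each fit had 1 liver at 2.5 months, so only sizes are given. In *Rragc*+/+ livers alone the log2 fold change was 2.72 for *Dbp*, 1.23 for *Nr1d1*, 1.08 for *Nr1d2*, 2.05 for *Bhlhe40* and -1.54 for *Arntl*. In *Rragc*S74N/+ livers alone the same 5 genes had 4.32, 1.83, 1.06, 0.85 and -2.45. With the base composition of transcript ends their log2 fold changes were 3.67 for *Dbp*, 1.01 for *Nr1d1*, 0.80 for *Nr1d2*, 1.84 for *Bhlhe40* and -1.95 for *Arntl*, and with the mitochondrial share 5.95 for *Dbp*, 0.60 for *Nr1d1*, 2.93 for *Bhlhe40* and -2.87 for *Arntl*. The 3 genes called between genotypes became 0 without the trend and with edgeR, 11 with DESeq2 and 0 to 4 when 1 liver was left out. The interaction had 0 calls, or 0 to 1 when 1 of the 3-month livers was left out (1 without *Rragc*+/+ replicate 4). Log2 fold changes changed sign with the mitochondrial share as a covariate, at -0.57 for *Nr1d2*, 1.78 for *Gnb2*, 0.33 for *Rnaset2b*, 0.39 for *Cers2*, 0.65 for *Slc25a22*, 1.99 for *Ndufa4*, 0.54 for *Ndufb3*, 2.52 for *Ndufa1*, 1.29 for *mt-Cytb*, 0.0066 for *Rps3*, 2.10 for *Rps2*, 1.54 for *Cyp27a1*, 2.91 for *Amacr*, 1.74 for *Cyp2c50*, 1.01 for *Cth*, 0.41 for *Gldc*, 0.0696 for *Gls2*, 0.20 for *Nfkbia*, 1.22 for *Mid1ip1*, 1.01 for *Tpp1* and 0.90 for *Ctsl*. With age as a number the sign changed, at -0.087 for *Inhba*, 0.56 for *Cth*, 1.07 for *Got1*, 0.90 for *Gls2*, 1.10 for *Aldh1b1* and 0.53 for *Ctsl*. The mitochondrial share separated the age groups, so calls and signs under that covariate cannot tell age from the share. The cause was not tested. Of the other values of named genes under the alternatives, 1516 kept their direction and side of the threshold, 551 kept the direction and lost the call, 20 gained one and 37 uncalled ones changed sign. No paired analysis was possible because numbers given in sample order link no mice across ages. Depth limits the called genes with few reads, as 67 of the 368 lower genes had under 10 reads in at least 1 of the livers compared.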
